A study of Mus musculus with 24 samples.

Results

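Resting naive CD4 T cells without TRIM28 (KO) were compared with those of wild-type littermates (WT) before any stimulation. The comparison used 6 of the series' 24 arrays, those titled as 0 h, with 3 of TRIM28KO mice and 3 of wild-type mice, and 22180 genes. The other 18 arrays hold the same genotypes after 4, 24 or 72 h of stimulation through CD3 and CD28, 3 arrays a group, and entered the fit only as a shared estimate of the spread and in the comparison with later times. Cells of all groups were enriched on magnetic beads and sorted by flow cytometry, and the 0 h cells had no antibody stimulation. The strain, the age of the mice, the way Trim28 was deleted, the sort gate and whether each array of a group came from its own animal are not stated in the labels. What the p-values measure is thus array-to-array spread, which may be technical in part.

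TRIM28 is a corepressor without DNA-binding specificity of its own. KRAB zinc finger proteins bind DNA and recruit it, and it brings in the histone methyltransferase SETDB1, heterochromatin proteins and a deacetylase complex, which silence transposable elements and sequence around them. In T cells it is known as a phosphorylation target of antigen receptor signalling. Naive CD4 T cells are resting cells that have not met antigen, with high CD3, IL-7 receptor and CCR7 and low transcription of effector genes.

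Levels are log2 intensities normalised by the authors, and a difference of 1 is a fold of 2. Changes are KO minus WT with limma's standard error (SE), and a gene counted as changed where limma's Benjamini-Hochberg adjusted p over all genes was under 0.05. In bulk RNA, a gene's level in each cell and the share of cells that express it cannot be told apart. The 6 arrays had medians between 3.70 and 3.74, and correlated at 0.987 to 0.990 within a genotype and at 0.984 to 0.986 between genotypes. Array 3 of each genotype had Kdm5d, a Y-linked gene, at 7.41 in WT and 7.35 in KO, whereas arrays 1 and 2 lay between 2.27 and 2.70. Xist, the RNA of the inactive X chromosome, lay between 9.94 and 10.3 on arrays 1 and 2 of both genotypes and at 4.79 and 3.33 on WT and KO array 3. Each genotype thus had arrays 1 and 2 with female and array 3 with male levels.

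Trim28 itself had levels of 5.12, 4.93 and 5.44 on KO arrays 1 to 3 and of 7.81, 7.71 and 7.84 on WT arrays 1 to 3. The groups did not overlap, and the change of -2.62 (SE 0.13, limma's adjusted p = 1.17e-13) corresponds to a level 6.16-fold lower in KO. The labels do not say which exons were deleted, so whether these probes lie in them is unknown here. Of 11 markers of CD4 T cells, 1 fell (9.09%, against 0.577% of all genes) and 0 rose, with a list median of -0.13. Their mean level was 10.13 to 10.16 on WT arrays and 10.002 to 10.05 on KO arrays. In 5 of the 11 all KO arrays lay below all WT arrays, as in 7.09% of all genes, and these shares do not allow for level. Thy1, a defining marker, differed by -0.37 and did not pass, but passed on the 6 arrays at 0 h alone (limma's adjusted p = 0.025). Cd4 lay between 11.06 and 11.16 in WT and between 10.95 and 11.05 in KO, and Ccr7, the receptor for entry into lymph nodes, between 10.42 and 10.57 in WT and between 10.41 and 10.50 in KO. The member that fell was Cd5, a receptor that damps antigen receptor signals (-0.35, SE 0.05, adjusted p = 6.09e-05). Cd8a, a marker of CD8 T cells, lay below the array medians on all 6 arrays, between 2.93 and 3.58. So did Klrb1c of natural killer cells (2.10 to 2.56) and Pf4 of platelets (2.07 to 2.30). Over 9 CD8 T cell markers, however, the mean level lay above these medians, at 4.74 to 5.13. So did that over 14 natural killer and innate lymphoid markers, at 3.91 to 4.04. Klrd1, a member of both lists that is described below, lay between 5.37 and 7.11. The mean over 12 erythroid and platelet markers lay above the medians on KO array 3 alone. Low levels of single markers thus do not show that such cells were absent.

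Markers of B cells and of myeloid cells differed between the arrays, and KO array 2 stood nearest to WT. Over 21 B cell markers the mean level was 4.69, 4.32 and 5.06 on WT arrays 1 to 3 and 5.54, 4.92 and 5.51 on KO arrays 1 to 3, so that KO array 2 lay below WT array 3. Of these markers 4 rose and 0 fell (19.05%, against 1.76% of all genes that rose), and the list median was 0.51. Ly6d, a surface protein of early B cells that other cells can express too, was at 6.81, 6.95 and 7.38 in KO and at 4.92, 4.37 and 5.15 in WT. It rose by 2.23 (SE 0.20, adjusted p = 1.70e-08), and on KO array 2 alone the difference from WT was 2.14. Cd22, Cd79b and H2-Eb1 rose by 0.99, 0.95 and 0.75 with overlapping arrays, and each of these calls ended when WT array 1, WT array 2, KO array 1 or KO array 3 was left out (adjusted p up to 0.14, 0.28 and 0.24). The defining markers Cd79a (1.06, adjusted p = 0.20), Ms4a1 (0.85, adjusted p = 0.19) and Pax5 (0.25, adjusted p = 0.75) did not pass the threshold.

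Over 28 myeloid markers the mean level was 3.58, 3.51 and 3.73 in WT and 4.16, 3.79 and 4.30 in KO, and 7 rose (25%) with a list median of 0.17. The members that rose were mostly products of neutrophils. The calprotectin gene S100a8 was at 3.03, 2.88 and 3.86 in WT and at 5.93, 4.04 and 6.57 in KO, a rise of 2.26 (SE 0.45, adjusted p = 0.0041). The granule gene Ltf rose by 1.69, Lyz2, which encodes lysozyme, by 1.39, and the granule gene Ngp by 2.10, although Ngp's call ended without WT array 1, WT array 2, KO array 1 or KO array 3 (adjusted p up to 0.23). With KO array 2 as the KO array at 0 h, 1 B cell marker and 0 myeloid markers rose. Without KO array 2, 8 and 9 did. Without WT array 1, WT array 2, KO array 1 or KO array 3, 1 B cell marker and 4 myeloid markers did. The macrophage receptor gene Csf1r lay between 3.11 and 3.40 on all 6 arrays. The part of B cells or neutrophils in the other results was not tested. With KO array 2 as the lone KO array the SE is wider, so a call can end there with its change unmoved. S100a8 differed from WT by 0.79 on KO array 2 alone, against 2.26 over all KO arrays, and Ltf by 0.88, against 1.69. Lyz2 differed by 1.42, against 1.39. Outside the marker lists, the change on that array alone was -0.89 for Ccl3, 0.53 for Eea1, -0.98 for Hid1 and -0.49 for Myc. It was -0.91 for Oas2, -0.37 for Rasgrp1, -0.44 for Slfn2, -0.62 for Sntb1, 0.89 for Usp18 and 0.996 for Zfp873. These genes are described below, and all of these calls ended with KO array 2 alone. Values for others follow beside them.

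**Figure D1:**
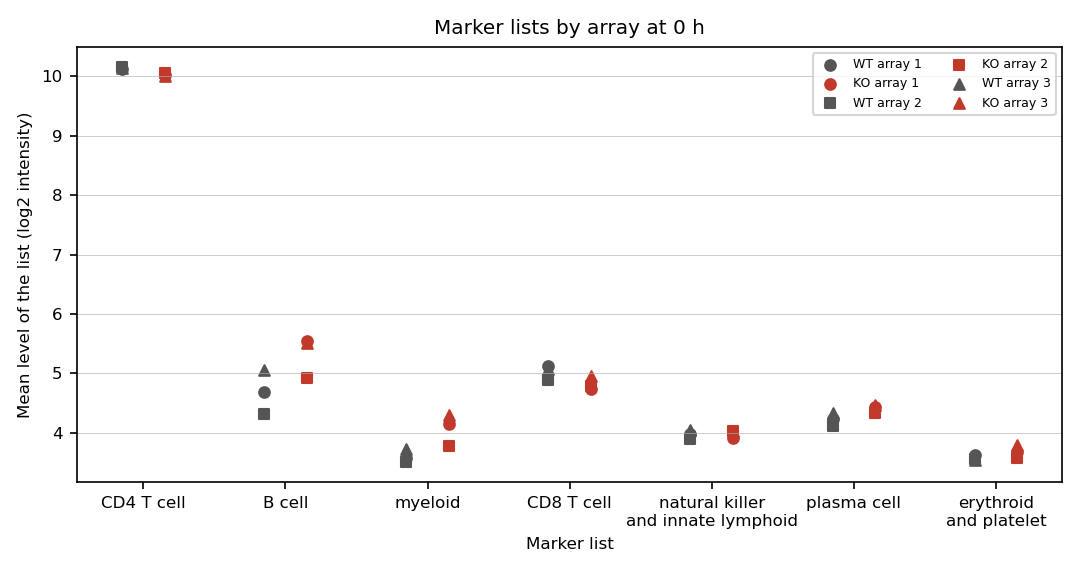
Mean level of 7 marker lists on each of the 6 arrays at 0 h (y axis, log2 intensity), with WT arrays in grey and KO arrays in red and a shape for each array number. The CD4 T cell list lies near 10 on every array, while the B cell and myeloid lists are highest on KO arrays 1 and 3.

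More genes were higher than lower in cells without TRIM28. Of 22180 genes, 390 rose (1.76%) and 128 fell (0.577%), so that 75.3% of the 518 changed genes (2.34%) were higher in KO. When quantile normalization was run again on the gene table, 61.0% of 523 changed genes were higher. The difference grew with the size of the change: 93 genes rose and 8 fell by at least 2-fold, and 26 rose and 1 fell by at least 4-fold, the latter being Trim28. The median change was 0.63 among genes that rose and -0.56 among those that fell, against 0.0039 over all genes. Of the genes that rose 83.8%, and of those that fell 90.6%, had a WT level above 3.70, the median over genes. The shares of 1.76% and 0.577% are the background for every gene list, and do not allow for level. In 371 of the 390 and 124 of the 128 no KO array overlapped a WT array, where 9.83% of all genes had KO arrays above and 7.09% had KO arrays below all WT arrays. The genes were called on these same 6 arrays. The separation, and the values by array that follow, thus describe the choice and are no further support. KO array 2 lay above all WT arrays in 375 of the genes that rose, array 1 in 389 and array 3 in 387. The median difference from the WT mean over these genes was 0.73 on KO array 1, 0.53 on KO array 2 and 0.61 on KO array 3. Leaving out WT array 2 left 232 rises and leaving out KO array 1 left 251, and falls numbered 82, 82 and 85 when WT array 2, KO array 1 or KO array 2 was left out. Fitted on the 6 arrays at 0 h alone, 210 genes rose and 66 fell.

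**Figure D2:**
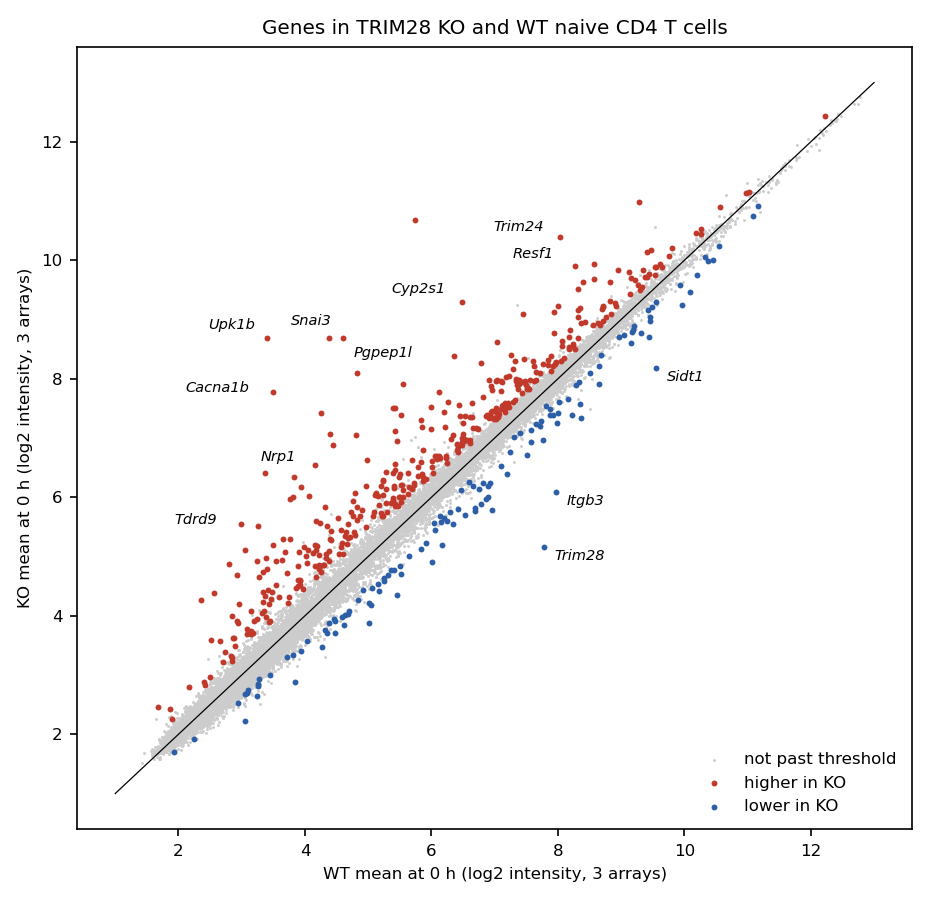
Mean level at 0 h of each of 22180 genes in WT (x axis) and KO (y axis), both as log2 intensity over 3 arrays. Red genes rose and blue genes fell (adjusted p under 0.05), grey genes did not pass, and the line marks equal levels. Trim28, at a mean 2.62 lower in KO, and Itgb3, 1.89 lower, are named below the line, and Upk1b, 5.29 higher, lies farthest above it.

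The largest rises included genes known from epithelia, neurons and germ cells. Upk1b encodes a tetraspanin of the bladder epithelium. It was at 8.80, 7.25 and 10.03 on KO arrays 1 to 3 and at 3.45, 3.26 and 3.48 on WT arrays, so that the KO arrays differed from each other far more than the WT arrays did. The change of 5.29 (SE 0.44, adjusted p = 5.18e-09) is a 39.3-fold difference. Snai3, a zinc finger repressor of the Snail family, was uniform in comparison, at 8.63, 8.74 and 8.70 in KO and 4.24, 4.33 and 4.55 in WT. Its rise was 19.9-fold (4.31, SE 0.18, adjusted p = 5.88e-15). Cacna1b, the pore-forming subunit of a neuronal calcium channel, was at 7.41, 8.04 and 7.90 in KO and at 3.40, 3.31 and 3.78 in WT, a 19.5-fold difference. Pgpep1l, which encodes a peptidase-like protein, was at 8.65, 8.67 and 8.75 in KO against 4.87, 4.19 and 4.75 in WT.

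Lists of such genes are given here beside the 1.76% of all genes that rose. The dynein assembly factor gene Lrrc6 was at 8.11, 6.41 and 7.77 in KO and at 4.51, 3.94 and 4.29 in WT, and was the 1 riser among 34 cilium genes (2.94%). Vmn2r96, a vomeronasal receptor gene, was at 6.80, 6.40 and 6.02 in KO and 3.61, 3.19 and 3.28 in WT, and was the 1 riser among 285 vomeronasal receptor genes (0.351%). Tdrd9 encodes a helicase that silences transposons in male germ cells. It was at 5.27, 5.30 and 6.07 in KO and at 2.99, 2.80 and 3.16 in WT (2.57, SE 0.17, adjusted p = 1.06e-10). Besides it, 1 more of 60 germline and early embryo genes rose (3.33% in all), Spo11, which makes the DNA breaks of meiosis. The list medians were 0.017 for cilium, -0.013 for vomeronasal and -0.036 for germline genes. Of 33 genes of neuronal channels and synapses, Cacna1b was the 1 that rose (3.03%), with a list median of -0.034. In 39 genes listed as epithelial, Upk1b, Snai3 and Epcam rose and Muc3a fell, with a list median of 0.025 (7.69% and 2.56%). Snai3 stands in this list although it encodes a Snail family repressor and is not a marker of epithelia. Epcam's call (0.70) ended without WT array 2, WT array 3, KO array 1 or KO array 3 (adjusted p up to 0.18). Of 1105 olfactory receptor genes 2 rose and 2 fell, but 0 rose without any 1 WT array and 0 fell without KO array 1 or KO array 2. Of 23 clustered protocadherins 0 rose or fell.

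Cyp2s1, a cytochrome P450, was at 9.17, 9.22 and 9.53 in KO and at 6.42, 6.21 and 6.83 in WT. That is a 7.04-fold difference (2.82, SE 0.17, adjusted p = 2.21e-11). Ankrd55, an ankyrin repeat gene, was at 7.01, 6.91 and 7.29 in KO and at 4.18, 4.32 and 4.70 in WT. Prr5, a subunit of the kinase complex mTORC2, rose by 2.23 (SE 0.16), from 3.67 to 4.14 in WT to 6.04 to 6.36 in KO. Osbpl3, which binds and moves lipids between membranes, rose by 2.21 (SE 0.15), and Pltp, a phospholipid transfer protein of plasma, by 2.05 (SE 0.21). Ccdc102a rose by 2.20 (SE 0.17). In each of these genes all KO arrays lay above all WT arrays, and the call held with each array left out in turn and with KO array 2 alone.

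**Figure D3:**
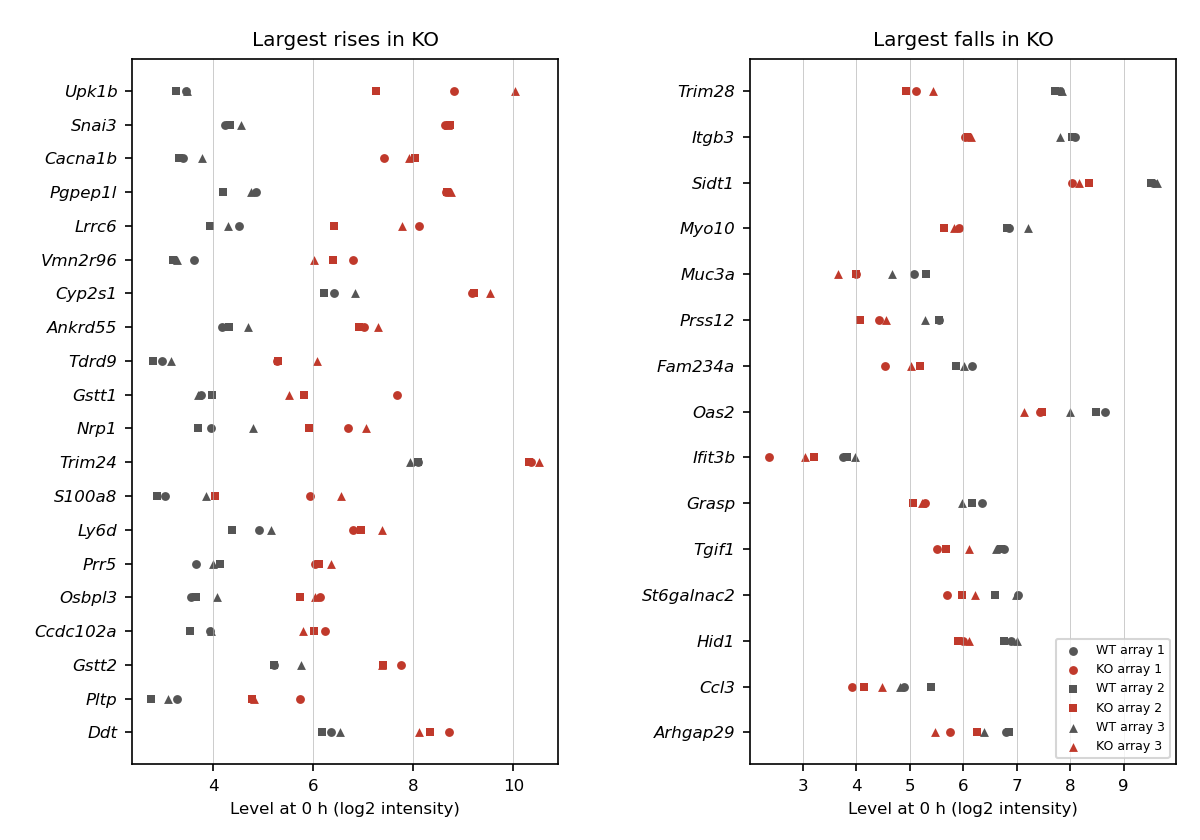
Level at 0 h (x axis, log2 intensity) on each of 6 arrays for the 20 genes with the largest rises (left) and the 15 with the largest falls (right) among changed genes whose groups were apart, predicted and segment genes left out. Grey points are WT and red points KO, with a shape for each array number; KO array 2 lies closest to WT in Upk1b, Lrrc6 and S100a8.

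Of 27 silencing factors that act with or beside TRIM28, 4 rose and Trim28 fell (14.8% up, 3.70% down), with a list median of 0.11. Trim24, a chromatin-binding relative of TRIM28 that pairs with it in larger complexes, was at 10.35, 10.30 and 10.50 in KO and at 8.09, 8.08 and 7.93 in WT. Its 5.10-fold rise (2.35, SE 0.08, adjusted p = 1.06e-16) had the smallest adjusted p of all named genes. Resf1, a factor for silencing of endogenous retroviruses, was at 9.72, 9.78 and 10.19 in KO and at 8.44, 8.19 and 8.19 in WT (1.62, SE 0.11, adjusted p = 1.06e-10). Morc3, a chromatin ATPase that also acts in retroviral silencing, was at 9.17, 8.83 and 9.38 in KO and at 8.03, 7.95 and 7.85 in WT (1.19, SE 0.09, adjusted p = 2.74e-09). The fourth member that rose, named after its value was seen, was Atf7ip, the partner of SETDB1 (0.34, SE 0.08, adjusted p = 0.011). Its call ended without WT array 2 or KO array 3 (adjusted p up to 0.076). The other 22 factors of the list did not pass the threshold.

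Genes named Zfp and a number, many of which encode the KRAB proteins that recruit TRIM28, rose in 12 of 362 cases (3.31%, against 1.76% of all genes) and fell in 1 (0.276%, against 0.577%), with a list median of 0.056. Zfp760 was at 6.37, 6.56 and 6.94 in KO and at 4.92, 5.0 and 5.01 in WT, a rise of 1.65 (SE 0.15, adjusted p = 4.08e-08). Zfp53 was at 8.06, 8.26 and 8.49 in KO and at 6.92, 6.53 and 6.90 in WT, a rise of 1.48 (SE 0.16, adjusted p = 9.57e-07). Zfp873 rose by 1.16 (SE 0.18, adjusted p = 0.000223). Zfp992 rose by 1.17, but its call ended without WT array 1, WT array 2 or any 1 KO array (adjusted p up to 0.20). The list's mean level was 5.08 to 5.09 on WT arrays, above the median of 3.70 over all genes in WT. Its share is thus set beside many genes of lower level, and an excess was not tested. Many of these genes are close paralogs, and signal shared between their probes was not tested. With KO array 2 alone 4 rose and 0 fell.

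Changed genes also lay next to each other on chromosomes. In RefSeq gene order, 54 of 385 genes that rose had a neighbour that rose (14.0%), where 747 of all 21994 ordered genes had one (3.40%). For falls the shares were 6.25% (8 of 128) and 1.15%. Runs of 4 neighbours that rose were Cabin1, Ddt, Gstt3 and Gstt1, then Cbr3, Dop1b, Morc3 and Chaf1b, and Bmp7, Spo11, Rae1 and Rbm38. The shares over all ordered genes do not allow for level. Pairs that rose included S100a8 with S100a9 and Prtn3 with Elane, and S100a8, S100a9 and Elane are among the myeloid markers above. Copies of a gene can share signal, as Gstt1 and Gstt3 or S100a8 and S100a9 might, and transcripts that run on into a neighbour were not separated.

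The first of these runs lies on chromosome 10 and holds an inhibitor of calcineurin, a tautomerase and a pair of theta-class glutathione transferases, enzymes that attach glutathione to toxic and oxidised molecules. Gstt1 was at 7.68, 5.81 and 5.51 on KO arrays 1 to 3 and at 3.77, 3.99 and 3.70 on WT arrays, a rise of 2.52 (SE 0.47, adjusted p = 0.0022), with KO array 1 well above the other two. On KO array 2 alone it did not pass (1.99, adjusted p = 0.13). Gstt3 was at 5.35, 4.60 and 4.81 in KO and at 3.56, 3.13 and 3.04 in WT (1.68, SE 0.20, adjusted p = 4.09e-06). Ddt, whose product is a relative of the cytokine MIF, was at 8.71, 8.33 and 8.11 in KO and at 6.35, 6.18 and 6.53 in WT (2.03, SE 0.14, adjusted p = 1.06e-10). Cabin1, the calcineurin inhibitor, differed least, at 8.67, 8.52 and 8.56 in KO and 8.16, 8.24 and 8.33 in WT (0.34, SE 0.08, adjusted p = 0.018), and its call ended without WT array 1, WT array 2 or KO array 1 (adjusted p up to 0.11). Gstt2, which lies close by but not within the run, was at 7.76, 7.39 and 7.38 in KO and at 5.22, 5.21 and 5.76 in WT (2.11, SE 0.15). Of 22 glutathione transferase genes measured, 5 rose and 0 fell (22.7%), the other members being Gstk1 (0.74) and, named after its value was seen, Gstp1 (0.41), and the list median was 0.13. Gstp1's call ended without WT array 1, WT array 2, KO array 1 or KO array 3 (adjusted p up to 0.12).

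The promoters of this run and of 2 genes with large rises elsewhere are shown because these genes all rose while their start regions differ widely in CG content. Each stretch holds 250 bases before and 50 after the RefSeq start in GRCm38.p6, 5′ to 3′ on the gene's strand, with every CG dinucleotide in capitals (CG reads the same on both strands). Gstt3 has 2 starts listed, of which the first was taken and the other was not examined. Cabin1 lies at chr10:75764308-75764607, Ddt at chr10:75773325-75773624, Gstt3 at chr10:75781373-75781672 and Gstt1 at chr10:75797682-75797981, all on the minus strand. Cacna1b lies at chr2:24763103-24763402 on the minus strand and Vmn2r96 at chr17:18581477-18581776 on the plus strand.
Cabin1: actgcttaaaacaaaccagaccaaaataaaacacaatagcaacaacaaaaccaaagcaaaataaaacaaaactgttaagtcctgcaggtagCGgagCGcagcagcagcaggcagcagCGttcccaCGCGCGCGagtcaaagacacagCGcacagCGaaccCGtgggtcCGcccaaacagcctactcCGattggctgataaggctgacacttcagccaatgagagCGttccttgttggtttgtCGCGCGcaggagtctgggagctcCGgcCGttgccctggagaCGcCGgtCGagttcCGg
Ddt: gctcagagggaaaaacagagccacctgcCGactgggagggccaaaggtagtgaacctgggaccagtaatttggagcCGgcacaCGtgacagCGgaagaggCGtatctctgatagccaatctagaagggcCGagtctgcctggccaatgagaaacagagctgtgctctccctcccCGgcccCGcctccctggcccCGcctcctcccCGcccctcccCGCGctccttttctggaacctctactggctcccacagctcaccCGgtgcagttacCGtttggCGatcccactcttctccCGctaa
Gstt3: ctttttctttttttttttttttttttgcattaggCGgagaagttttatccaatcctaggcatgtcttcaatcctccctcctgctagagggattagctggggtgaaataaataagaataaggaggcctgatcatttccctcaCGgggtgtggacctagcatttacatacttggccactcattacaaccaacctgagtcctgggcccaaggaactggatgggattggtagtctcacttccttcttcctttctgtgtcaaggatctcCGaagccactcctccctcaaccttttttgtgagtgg
Gstt1: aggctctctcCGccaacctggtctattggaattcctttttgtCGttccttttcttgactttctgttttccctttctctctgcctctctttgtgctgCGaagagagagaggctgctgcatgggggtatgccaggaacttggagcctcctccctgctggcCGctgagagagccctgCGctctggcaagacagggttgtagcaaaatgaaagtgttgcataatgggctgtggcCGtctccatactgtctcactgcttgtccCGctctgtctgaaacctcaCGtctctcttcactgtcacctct
Cacna1b: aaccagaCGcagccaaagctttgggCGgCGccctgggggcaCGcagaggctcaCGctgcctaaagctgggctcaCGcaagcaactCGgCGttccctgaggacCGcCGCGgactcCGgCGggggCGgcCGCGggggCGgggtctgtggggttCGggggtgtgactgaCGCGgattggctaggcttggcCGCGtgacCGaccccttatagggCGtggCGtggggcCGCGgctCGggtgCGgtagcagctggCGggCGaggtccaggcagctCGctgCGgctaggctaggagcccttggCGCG
Vmn2r96: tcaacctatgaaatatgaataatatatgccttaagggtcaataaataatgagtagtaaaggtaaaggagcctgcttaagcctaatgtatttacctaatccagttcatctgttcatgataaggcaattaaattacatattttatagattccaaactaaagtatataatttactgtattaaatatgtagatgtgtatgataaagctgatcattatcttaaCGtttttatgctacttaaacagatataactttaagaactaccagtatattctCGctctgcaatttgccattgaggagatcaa

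Cacna1b had 35 CG in these 300 bases, a number that 6.73% of all promoters of this length reached or passed, and Vmn2r96 had 2, which 85.4% reached or passed. Within the run on chromosome 10, Cabin1 had 22 (23.3% of promoters with as many or more), Ddt 16 (33.5%), Gstt1 8 (49.0%) and Gstt3 3 (76.2%). The count is a description of the letters in this window, and methylation was not measured. Promoter entries were at hand for 301 of the 390 genes that rose (77.2%), under the 80% set as the least share for a comparison over a set, so none is made.

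The second run holds genes with roles in chromatin. Chaf1b, a subunit of the histone chaperone that loads nucleosomes behind the replication fork, was at 7.45, 7.61 and 7.73 in KO and at 6.66, 6.49 and 6.77 in WT (0.96, SE 0.09, adjusted p = 1.43e-07). Dop1b, linked to endosome traffic, rose by 1.22 (SE 0.10), beside Morc3 at 1.19, and Cbr3, a carbonyl reductase, by 1.09 (SE 0.19), which was 0.55 on KO array 2 alone (adjusted p = 0.42). In the third run Bmp7, a secreted ligand of the TGF-beta family, was at 5.77, 5.82 and 5.92 in KO and at 4.41, 4.26 and 4.29 in WT (1.52, SE 0.14, adjusted p = 2.18e-08). Its neighbours differed less: Spo11 rose by 1.05, the messenger RNA export factor gene Rae1 by 0.28 and the RNA-binding protein gene Rbm38 by 0.50. The calls of these 3 each ended with 1 array left out: Spo11 without WT array 1, WT array 2 or KO array 3 (adjusted p up to 0.12), Rae1 without WT array 1 (0.060) and Rbm38 without KO array 3 (0.054). Runs of 3 were Mbd1, Cfap53 and Myo5b, and Zbtb42, Cep170b and Pld4. Zbtb42's call ended with any 1 array left out (adjusted p up to 0.20). Those of Cep170b and Pld4 ended without WT array 1, WT array 2, KO array 1 or KO array 3 (adjusted p up to 0.23 and 0.15), and that of Cfap53 without WT array 1, WT array 2 or KO array 1 (adjusted p up to 0.13). Mbd1, which binds methylated DNA, was at 8.25, 8.35 and 8.42 in KO and 7.43, 7.48 and 7.47 in WT (0.88, SE 0.09, adjusted p = 8.36e-08), and Myo5b, a vesicle motor, rose by 1.02, or 0.77 on KO array 2 alone (adjusted p = 0.23). The largest difference between neighbours was that of Snai3 (4.31) and Rnf166, a ubiquitin ligase gene, which rose by 0.82 (SE 0.13).

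Of 23 genes of regulatory T cells 8 rose (34.8%, against 1.76% of all genes) and 0 fell, with a list median of 0.31 against 0.0039 over all genes. The share of all genes does not allow for level. Nrp1, a semaphorin receptor of regulatory T cells from the thymus, was at 6.69, 5.92 and 7.05 in KO and at 3.97, 3.70 and 4.79 in WT, a rise of 2.40 (SE 0.36, adjusted p = 0.000114). Ikzf4, a zinc finger partner of FOXP3, was at 6.71, 6.48 and 6.58 in KO and at 6.07, 5.69 and 5.74 in WT (0.75, SE 0.13, adjusted p = 0.0006). Tnfrsf9, the costimulatory receptor 4-1BB, was at 7.32, 7.11 and 7.70 in KO and at 6.45, 6.29 and 6.87 in WT (0.84, SE 0.12, adjusted p = 6.97e-05). Lrrc32, the surface anchor of latent TGF-beta, rose by 1.04, a call that ended without WT array 1, KO array 1 or KO array 2 (adjusted p up to 0.21). Il2ra, the high-affinity subunit of the IL-2 receptor, rose by 0.59 (SE 0.11, adjusted p = 0.0023). It was at 6.85, 6.80 and 6.41 in KO and at 6.07, 6.38 and 5.84 in WT, so the groups were barely apart. Its call ended on the 6 arrays at 0 h alone (limma's adjusted p = 0.12). Foxp3, the lineage factor, was at 7.87, 7.29 and 7.12 in KO and 6.70, 6.58 and 6.71 in WT without overlap, and did not pass the threshold (0.76, SE 0.24, adjusted p = 0.11). Fitted on the 6 arrays at 0 h alone, Foxp3 did pass (limma's adjusted p = 0.046). In the fit over all arrays Ctla4 (0.16, adjusted p = 0.54) and Ikzf2 (0.10, adjusted p = 0.89) did not pass either. The list's mean level was 5.27, 5.20 and 5.37 on WT arrays and 5.75, 5.58 and 5.72 on KO arrays, lowest on KO array 2 among the KO arrays. With KO array 2 alone, 1 of the 8 genes passed, Il2ra (0.70, adjusted p = 0.012), and Nrp1 was at 1.76 (adjusted p = 0.11).

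Of 38 cytokine receptor genes 9 rose and 1 fell (23.7% and 2.63%, against 1.76% and 0.577% of all genes, median 0.13). Of 48 cytokine and chemokine genes 1 rose, near the share of all genes, and 3 fell (2.08% and 6.25%, median 0.0098). Fitted on the 6 arrays at 0 h alone, 5 receptor genes rose and 1 fell. The falls among cytokines and chemokines numbered 1 without WT array 2 or KO array 1. The shares of all genes do not allow for level. No test was made between these lists. Il2ra, Tnfrsf4, Tnfrsf9 and Tnfrsf18 rose as members of both the cytokine receptor and the regulatory T cell list, so these counts are not separate results. Tnfrsf1b, the second receptor for tumour necrosis factor, was at 8.22, 8.38 and 8.30 in KO and at 7.27, 7.34 and 7.35 in WT (0.98, SE 0.09, adjusted p = 4.61e-08). Il2rb, the shared beta chain of the IL-2 and IL-15 receptors, was at 7.93, 7.52 and 7.66 in KO and at 6.84, 6.66 and 6.96 in WT (0.88, SE 0.10, adjusted p = 1.02e-06). Ifngr1, the ligand-binding chain of the interferon gamma receptor, was at 10.13, 10.23 and 10.13 in KO and at 9.48, 9.40 and 9.53 in WT (0.70, SE 0.11, adjusted p = 0.000192). These 3 calls held with KO array 2 alone and under every other setting tried. Among ligands the chemokine gene Ccl3 fell by 0.86 (SE 0.16, adjusted p = 0.0022), from 4.82 to 5.40 in WT to 3.91 to 4.47 in KO. Fasl, the death ligand, fell by 0.65 and Tnf by 0.39. Fasl's call ended without WT array 2 or KO array 1 (adjusted p up to 0.096), and Tnf's without any 1 WT array, KO array 1 or KO array 3 (adjusted p up to 0.14). Il2, Ifng and Il17a, the main cytokine genes of activated helper cells, lay between 2.68 and 4.23 on all 6 arrays and did not pass.

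Inhibitory and homing receptors included genes that B cells express too. Cd200, a ligand that restrains myeloid cells, was at 7.53, 7.36 and 7.69 in KO and at 5.98, 5.58 and 6.39 in WT (1.54, SE 0.12, adjusted p = 2.80e-09). Btla, an inhibitory receptor, was at 10.26, 9.98 and 10.18 in KO and at 9.41, 9.36 and 9.46 in WT (0.73, SE 0.07, adjusted p = 2.13e-07). Cxcr5, the receptor that guides cells to B cell follicles, was at 7.33, 6.97 and 7.60 in KO and at 5.91, 5.28 and 6.34 in WT (1.46, SE 0.25, adjusted p = 0.000763). On KO array 2 alone Cd200 (1.38, adjusted p = 3.13e-05) and Btla (0.57, adjusted p = 0.0021) passed, and Cxcr5 did not (1.13, adjusted p = 0.19). In all, 3 of 16 inhibitory receptor genes rose and 1 fell (18.8% and 6.25%, median 0.052). Lag3 rose by 0.60, a call that ended without WT array 2, KO array 1 or KO array 3 (adjusted p up to 0.19), and the collagen receptor gene Lair1 fell by 0.60, which ended without WT array 1 or KO array 3 (adjusted p up to 0.13). Of 32 effector and memory genes 4 rose and 0 fell (12.5%, median 0.026), among them Bhlhe40, a transcription factor of cytokine production, by 0.73 (SE 0.14, adjusted p = 0.0022), or 0.68 on KO array 2 alone (adjusted p = 0.13). Cd44, the usual surface marker of memory, was at 5.53, 5.54 and 5.76 in KO and at 5.90, 5.92 and 5.91 in WT, and did not pass (-0.30, adjusted p = 0.27).

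Of 30 genes of the early response to antigen, 5 rose and 5 fell (16.7% each way, median -0.065). Of all genes 1.76% rose and 0.577% fell, shares that do not allow for level. The genes that rose were Cd200, Tnfrsf9, Il2ra, Tnfrsf4 and Nfkbia. Tnfrsf9, Il2ra and Tnfrsf4 are counted in the regulatory T cell and cytokine receptor lists too, and Cd200 among inhibitory receptors. Cd5 is also counted among CD4 T cell markers and antigen receptor signalling genes. The genes that fell were Myc, Dusp5, Ier2, Cd5 and Cd69. Ier2's call ended with any array but KO array 3 left out (adjusted p up to 0.23). The falls numbered 3 without WT array 1, WT array 3, KO array 1 or KO array 2. Myc, a driver of growth, was at 8.61, 8.83 and 8.89 in KO and at 9.35, 9.32 and 9.28 in WT (-0.54, SE 0.09, adjusted p = 0.000346). Dusp5, a phosphatase that inactivates the kinase ERK and was named after its value was seen, fell by 0.52 (SE 0.10, adjusted p = 0.0035). Cd69, a retention receptor induced by antigen, fell by 0.25, a call that ended without WT array 1, WT array 3, KO array 1 or KO array 2 (adjusted p up to 0.17). Of 33 antigen receptor signalling genes 0 rose and 2 fell (6.06%, median 0.0021), with Rasgrp1, the activator of RAS, at 9.86, 9.996 and 10.10 in KO and 10.41, 10.38 and 10.31 in WT (-0.38, SE 0.08, adjusted p = 0.0043).

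Of 26 genes of the naive and quiescent state 0 rose and 3 fell (11.5%, against 0.577% of all genes), and the list median was -0.16. The list's mean level was 9.46 to 9.52 on WT arrays, and the shares of all genes given here do not allow for level. Igfbp4, a binding protein of insulin-like growth factors that marks naive T cells, was at 9.46, 9.06 and 9.20 in KO and at 10.01, 9.82 and 10.08 in WT (-0.73, SE 0.14, adjusted p = 0.0024). Slfn2, a keeper of T cell quiescence, was at 9.66, 9.75 and 9.86 in KO and at 10.16, 10.22 and 10.21 in WT (-0.44, SE 0.08, adjusted p = 0.0026). Dusp6, another phosphatase of ERK, fell by 0.38, a call that ended without WT array 1, WT array 2, KO array 2 or KO array 3 (adjusted p up to 0.16). Il7r (-0.37, adjusted p = 0.53) and Lef1 (-0.18, adjusted p = 0.37) did not pass. In this list 9 of 26 genes had all KO arrays below all WT arrays, where 7.09% of all genes had.

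**Figure D4:**
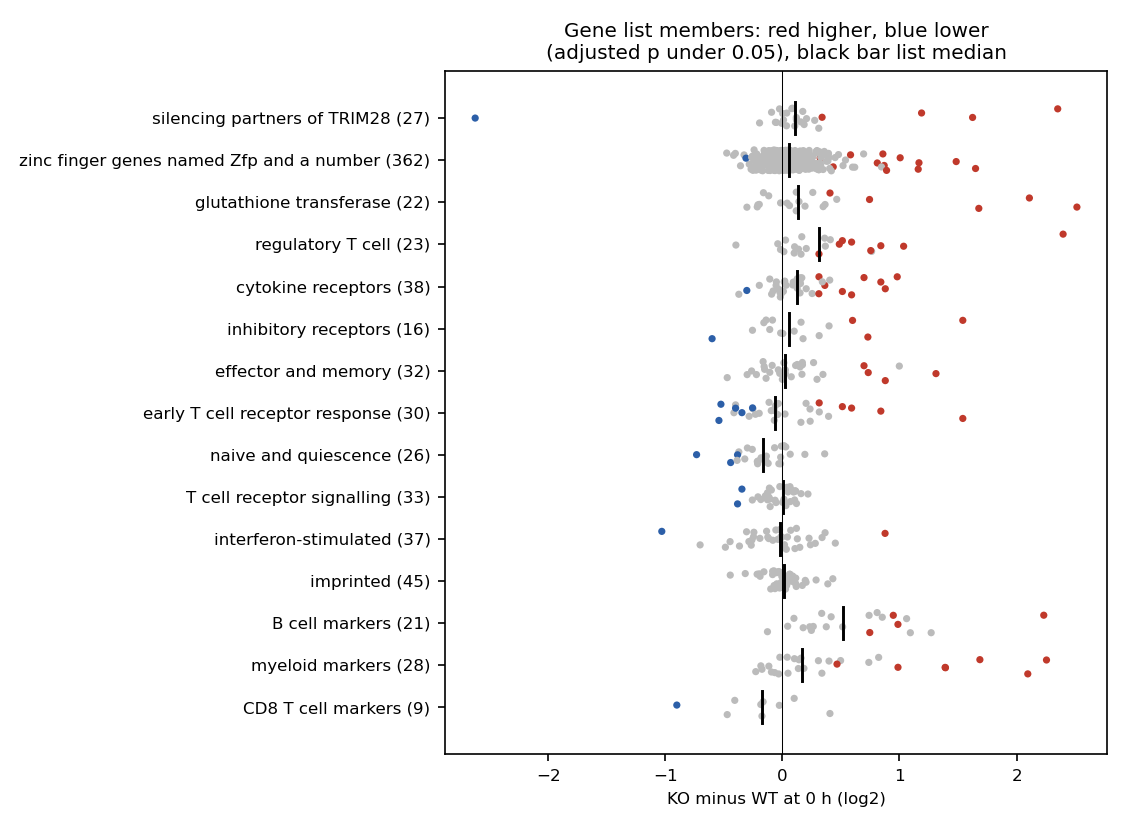
KO minus WT at 0 h (x axis, log2) of each member of 15 gene lists, with the number measured in parentheses, a red point for a gene that rose, a blue point for one that fell and a black bar at the list median. The medians lie between -0.17 for CD8 T cell markers and 0.51 for B cell markers, and the regulatory T cell list is next at 0.31.

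The genes with the largest falls included an integrin, a mucin, a motor and a protease. Itgb3, the integrin beta chain that pairs with alpha V on T cells and with the alpha chain of the platelet integrin, was at 6.03, 6.08 and 6.14 in KO and at 8.08, 8.03 and 7.80 in WT, 3.70-fold lower (-1.89, SE 0.14, adjusted p = 8.60e-10). It was the 1 gene of 25 integrins that changed. Sidt1, a transmembrane protein linked to RNA transport, was at 8.02, 8.35 and 8.17 in KO and at 9.54, 9.50 and 9.61 in WT, 2.59-fold lower (-1.37). With the mean of its probe sets in place of the brightest, the change was -0.78. Myo10, a motor of filopodia, was at 5.92, 5.63 and 5.82 in KO and at 6.86, 6.81 and 7.21 in WT. The groups did not overlap in any of these genes. Muc3a, a membrane mucin, was at 3.99, 4.0 and 3.66 in KO and 5.09, 5.31 and 4.66 in WT, and Prss12, a neuronal serine protease, at 4.42, 4.06 and 4.55 in KO and 5.55, 5.54 and 5.29 in WT. Tgif1, a repressor of TGF-beta target genes, fell by 0.93 (SE 0.11, adjusted p = 4.09e-06), from 6.62 to 6.76 in WT to 5.51 to 6.10 in KO. Grasp, a scaffold of membrane receptors, fell by 0.97 (SE 0.13) and the sialyltransferase gene St6galnac2 by 0.90 (SE 0.16). Fam234a fell by 1.097, with -0.82 on KO array 2 alone (adjusted p = 0.30), and Hid1 by 0.89. Klrd1, the CD94 subunit of receptors of natural killer and CD8 T cells, was at 5.37, 5.77 and 6.50 in KO and at 7.11, 6.25 and 6.98 in WT. It fell by 0.90 with overlapping arrays, and the call ended without WT array 1, WT array 3, KO array 1 or KO array 2 (adjusted p up to 0.21).

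Of 37 interferon-stimulated genes, 1 rose and 1 fell (2.70% each way), and the list median was -0.025. Oas2, a sensor of double-stranded RNA, was at 7.43, 7.46 and 7.13 in KO and at 8.65, 8.47 and 7.99 in WT (-1.03, SE 0.17, adjusted p = 0.000511). Usp18, the protease that shuts off interferon receptor signals, was at 9.79, 9.84 and 9.86 in KO and at 9.17, 8.91 and 8.78 in WT (0.88, SE 0.15, adjusted p = 0.000963). Ifit3b, outside that list, fell by 0.97, a call that ended without WT array 2, WT array 3 or KO array 1 (adjusted p up to 0.15).

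In metabolism, 2 of 20 fatty acid oxidation genes rose and 0 fell (10%, median 0.10). Acadm, which starts the oxidation of medium-chain fatty acids, was at 9.24, 9.14 and 9.08 in KO and at 8.25, 8.29 and 8.41 in WT (0.84, SE 0.07, adjusted p = 1.08e-08). Acaa2, which ends each round of it, rose by 0.45, a call that ended without WT array 1 or KO array 3 (adjusted p up to 0.068). Mvd, an enzyme of sterol synthesis, was the 1 of 21 cholesterol and fatty acid synthesis genes that rose (0.87, SE 0.12, adjusted p = 4.4e-05). With limma at the adjusted threshold, 0 of 17 glycolysis genes, 0 of 20 p53 targets and 0 of 45 imprinted genes changed. Of 35 cell cycle genes Mki67 rose (0.54, SE 0.12), a call that ended without WT array 2, KO array 1 or KO array 3 (adjusted p up to 0.097), and E2f2 fell (-0.62, SE 0.11, adjusted p = 0.0017). Both calls ended on the 6 arrays at 0 h alone. E2f2's also ended with arrays 1 and 2 of every group (limma's adjusted p up to 0.11 over these settings), though it held with each array left out. Of 15 T helper 1 genes 1 rose and 1 fell (6.67% each way, against 1.76% and 0.577% of all genes), of 13 T helper 2 genes 0 changed, and of 17 T helper 17 genes 2 rose (11.8%). Without WT array 1, WT array 2, KO array 1 or KO array 2, 0 T helper 17 genes rose, and 0 T helper 1 genes fell without any 1 WT array, KO array 1 or KO array 3. Gata3, the T helper 2 regulator, lay between 7.43 and 7.68 in WT and between 7.25 and 7.49 in KO.

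After stimulation part of these differences was seen again on other arrays. Of the 390 genes that rose at 0 h, 149 rose at 4 h (38.2%, against 3.3% of all genes), 128 at 24 h (32.8%, against 3.9%) and 82 at 72 h (21.0%, against 2.56%). Their median change was 0.34, 0.21 and 0.12 at these times. At 24 h 24 of them fell and at 72 h 22 did. Of the 128 genes that fell at 0 h, 20 fell at 4 h (15.6%, against 0.834%), 26 at 24 h (20.3%, against 7.38%) and 14 at 72 h (10.9%, against 3.78%). Of the 390, 45 rose at all 3 later times and 188 at none. Of the 128, 4 fell at all 3 and 87 at none. Arrays of one number may come from the same mouse at different times, which the labels do not say. All times also share 1 estimate of spread for each gene, so a gene with a low estimate is more easily called at each. The calls at different times are thus not independent, and the shares of all genes do not allow for level.

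Whether the difference at 0 h was unlike the mean of the later differences was tested in the same fit. This held for 470 genes (2.12%), of which 302 lay above 0 (1.36%) and 168 below (0.757%). A gene called at 0 h was chosen on a difference that is part of this contrast, which tends to move the contrast away from 0 in the called direction, so the values of such genes are a description. Trim28 was 0.63 above the mean of its later differences. Without WT array 1, 305 genes passed, and without WT array 2, 310.

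The largest excess at 0 h was in Upk1b, where the difference of 5.29 was followed by 0.93, 1.48 and 0.37 at 4, 24 and 72 h. Snai3 went from 4.31 to 1.48, 1.18 and 0.51. Cacna1b kept 3.78 at 4 h before it came down to 1.61 and 0.26, and Ankrd55 likewise kept 2.39 before 1.09 and 0.01. Pltp was raised at 0 h alone among the 4 times (2.05, then 0.16, 0.38 and 0.12). Trim24 went from 2.35 to 0.75, 1.56 and 0.49. In contrast, Pgpep1l stayed at 4.36, 4.71 and 3.42 and Vmn2r96 at 2.70, 2.24 and 1.83. The theta-class genes Gstt1 (2.55, 3.04 and 2.0) and Gstt3 (2.28, 1.86 and 1.17) also rose at every time, as did Ly6d (1.53, 3.06 and 2.53), Resf1 (1.59, 1.26 and 0.79) and Mbd1 (0.90, 0.83 and 0.86).

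Some genes grew further apart or crossed over with stimulation. Acadm differed by 0.84 at 0 h and by 1.80, 1.81 and 2.39 later, and was the 1 gene with a rise at 0 h among the 8 lowest values of this contrast (-1.16). Itgb3 was lower by 1.89 at 0 h and by 1.0 at 4 h, and lay at -0.09 and -0.03 at 24 and 72 h. St6galnac2 fell at 0 h and rose at 24 h (0.71) and 72 h (1.20), and Sntb1, a syntrophin gene, fell at 0 h and rose at 4 h (0.47) and 72 h (0.79). Eea1, a tether of early endosomes, rose by 0.66 at 0 h and fell by 1.51 and 0.98 at 24 and 72 h. Cysltr2, a leukotriene receptor gene, rose by 1.38 at 0 h (0.81 on KO array 2 alone, adjusted p = 0.11) and fell by 0.73 at 72 h. Myo10, by contrast, fell at all 4 times (-1.17, -0.87, -0.68 and -0.92).

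**Figure D5:**
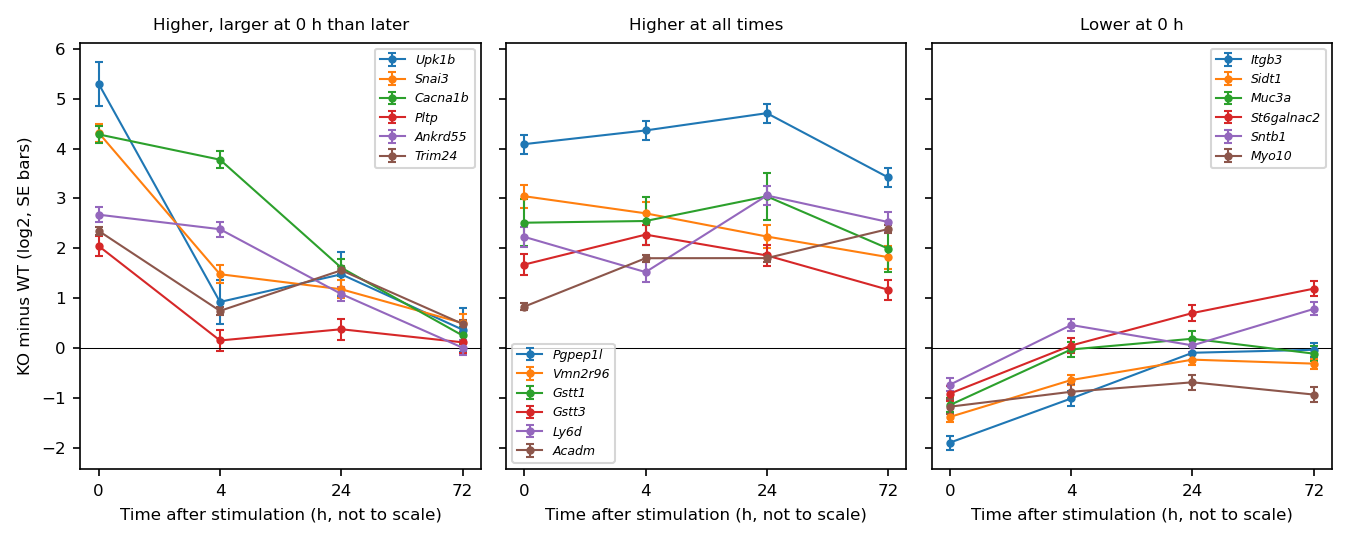
KO minus WT (y axis, log2, bars are the SE of limma's fit) at 0, 4, 24 and 72 h after stimulation for 6 genes raised more at 0 h than later (left), 6 genes that rose at all times (middle) and 6 genes that fell at 0 h (right). The lines on the left come down from 2.05 or more at 0 h to at most 0.51 at 72 h, and those of St6galnac2 and Sntb1 cross 0.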

How the data were processed

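RNA of sorted naive CD4 T cells was measured on 24 Affymetrix GeneTitan arrays in 8 groups of 3, by genotype and time. The values are log2 intensities that the authors made by RMA with the oligo package (R 3.1.0). This comes from the submitters' processing notes, and the deposited values were used unchanged. No columns held identical values. Such values keep no count of molecules, so precision rests on the number of arrays. Of 41345 probe sets, 23521 list 1 gene, 1814 several and 16010 none, and 23328 matched RefSeq names of GRCm38.p6. The probe set with the highest mean over all arrays stood for each of 1082 genes with several, which left 22180 genes.

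Group means of the 8 groups were fitted with limma 3.58.1 in R 4.3.3 (lmFit, and eBayes with a mean-variance trend). The 6 arrays at 0 h thus borrowed their spread from all arrays, with 16 residual degrees of freedom. Every adjusted p is limma's, by Benjamini-Hochberg over the 22180 genes, two-sided, with a threshold of 0.05. The fit was first tested on simulated data with 200 changed genes. Gene lists are described by counts and medians, without a set test. A gene can stand in several lists, so their counts are not separate results. The members and lists were chosen with earlier results of these data known.

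Named genes are Trim28, the 20 largest rises and 15 largest falls without overlap between genotypes (predicted, small RNA and receptor segment genes left out), up to 4 changed members of each list, defining markers, fixed reference genes, the 10 largest rises and falls among genes above the 40th percentile in WT, the 8 highest and 8 lowest changed genes in the contrast of 0 h with later times, and runs of neighbours. Alternatives left out each array, used only the 6 arrays at 0 h, arrays 1 and 2, or KO array 2, added a replicate block, or changed the probe set rule, the filter on low genes, the normalization or the eBayes settings.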

Additional observations from a re-analysis of the deposited data

Results flagged for a closer look

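For 181 genes changed at 0 h, limma's contrast found the KO minus WT difference at 0 h unlike the mean of those at 4, 24 and 72 h (adjusted p under 0.05 over all genes). The values that follow are that contrast, the log2 difference at 0 h minus the later mean, for the 8 highest and 8 lowest of these genes, predicted genes and the like left out. Since the genes were called on the difference at 0 h, which is part of the contrast, the choice tends to move these values away from 0. Among genes that rose at 0 h it was 4.37 for Upk1b, 3.26 for Snai3, 2.40 for Cacna1b, 1.83 for Pltp, 1.61 for Lix1, 1.54 for Eea1, 1.51 for Ankrd55 and 1.497 for Cysltr2. Acadm, which also rose at 0 h, had -1.16, since its difference was larger after stimulation. Among genes that fell at 0 h it was -1.56 for St6galnac2, -1.51 for Itgb3, -1.17 for Sntb1, -1.16 for Muc3a, -1.05 for Prss12, -1.04 for Klrd1 and -0.98 for Sidt1.

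Outside the genes, 51 of the 16010 probe sets that list no gene were higher in KO at 0 h and 13 were lower (0.319% and 0.0812%). Of 1814 probe sets that list several genes, 8 were higher and 2 lower. What these probe sets measure was not examined.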

How the results depend on the processing

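Trim28 kept its direction and its call under all 15 alternatives (-2.86 to -2.51). With 1 array left out in turn, the 390 rises numbered 232 to 348, the 128 falls 82 to 96 and the 470 genes whose difference at 0 h was unlike the later mean 305 to 390. Only the 6 arrays at 0 h gave 210 rises and 66 falls, and cannot give the contrast with later times. Arrays 1 and 2 of every group gave 215, 69 and 235. KO array 2 as the lone KO array at 0 h, assumed to vary like the other groups, gave 138, 34 and 129. Quantile normalization run again gave 204 falls. These alternatives use fewer samples, except the last, whose cause was not tested. Of the 115 named genes that changed, 47 kept their call under all 15 alternatives, 68 lost it under at least 1, and 0 changed sign.

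With the arrays' number as a replicate block, 431 genes rose, 136 fell and 504 differed in the contrast with later times. Same-numbered KO and WT arrays had deviations that correlated at 0.075, 0.11 and 0.14 (0.048, 0.081 and 0.039 without Xist, Tsix and Y-linked genes), and every array correlated best with its own number, a hint from the data and not the design. The number was thus not taken as a pairing. With the block, 10 B cell and 9 myeloid markers rose. List counts under these alternatives were chosen after seeing the data.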
